A study of Homo sapiens with 6 samples.

Results

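Chromatin marks over the 4 human HOX clusters were described from ChIP-seq peak lists of cells labelled HepG2, a human line derived from a hepatocellular carcinoma. The 38 listed HOX genes were located in GENCODE release 44 on hg38, out of 20033 protein-coding genes. They comprised 10 genes of the HOXA cluster, 10 of HOXB, 9 of HOXC and 9 of HOXD. A gene was said to hold a peak when at least 1 bp of a peak fell within its body plus 3 kb on either side. In ChIP-seq, DNA bound to histones that carry a mark is captured with an antibody and sequenced, and a peak is a stretch with more reads than its background.

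The series held 6 libraries in 6 groups, 1 library per group: input, acetyl-lysine (Kac) and benzoyl-lysine (Kbz), each from untreated control cells and from cells given sodium benzoate (SB, 10 mM for 24 h). Cells can convert benzoate to benzoyl-CoA, the donor of the benzoyl group. Peak lists were used for 3 libraries, control Kac, SB Kac and SB Kbz. The labels report no peaks for control Kbz, so Kbz had no untreated counterpart, and the inputs were not analysed here. Both antibodies were pan antibodies, so the modified histone and residue are unknown. No test was made, since a single library per group leaves no replicate error to measure a difference against.

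The labelled cell type was checked against liver genes. Of 13 defining liver genes, 12 had a start under no peak of any list. ALB, APOB, FGB and FOXA2, which encode albumin, apolipoprotein B, a fibrinogen chain and a liver transcription factor, held 0 peaks in all 3 lists. Over all protein-coding genes 59.1% of starts lay under a control Kac peak. Among 7 blood genes control Kac lay over 1 start, SB Kac over 2 and Kbz over 0, and among 5 neuron genes 2 starts did so in each list. The lists therefore go against the label at the liver genes examined, and all HOX values are those of cells labelled HepG2.

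HOX genes encode homeodomain transcription factors that set the identity of body segments along the head to tail axis. In each cluster the genes lie in the order of their paralogue numbers, the low-numbered genes act in anterior and the high-numbered genes in posterior parts of the embryo, and all members are read from the same strand. In adult tissues and cell lines the clusters are either packed by Polycomb proteins or open, and open clusters can carry histone acetylation over long stretches. Several microRNAs and antisense RNAs are made from the same stretches.

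The HOX clusters lay under some of the longest stretches of both marks in the genome. The longest peak of each list fell in a HOX cluster, in HOXC for control Kac at 86194 bp, in HOXC for SB Kac at 100848 bp and in HOXA for SB Kbz at 34633 bp. Genome-wide the median peak measured 1211, 1196 and 1097 bp in the same order. Of the 5 longest peaks, HOX clusters held 3 of control Kac, 3 of SB Kac and 4 of SB Kbz. Among the 100 longest these numbers were 4, 5 and 12.

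**Figure D1:**
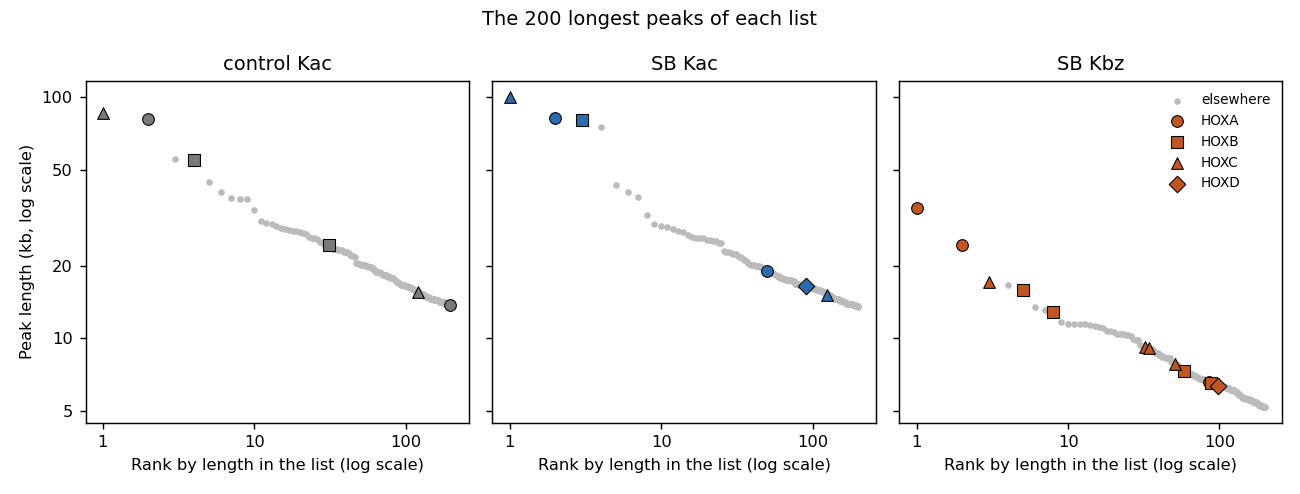
The 200 longest peaks of each list, by rank (horizontal, log scale) and by length in kb (vertical, log scale), for control Kac, SB Kac and SB Kbz. Large symbols are peaks in a HOX cluster and grey points are peaks elsewhere: HOXC and HOXA take the top 2 ranks for Kac in both conditions, and HOXA takes the top 2 for Kbz.

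Acetylation covered most of the clusters. The span of a cluster was taken from its first to its last listed gene plus 3 kb, and the 4 spans together held 539 kb. Control Kac peaks covered 385 kb of them (71.4%), SB Kac peaks 416 kb (77.1%) and SB Kbz peaks 237 kb (43.9%). The same lists covered 4.22%, 3.74% and 1.05% of the genome. The spans held 34 control Kac, 27 SB Kac and 52 SB Kbz peaks. Kbz peaks therefore covered less sequence in more pieces than the Kac peaks of the same treated cells.

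**Figure D2:**
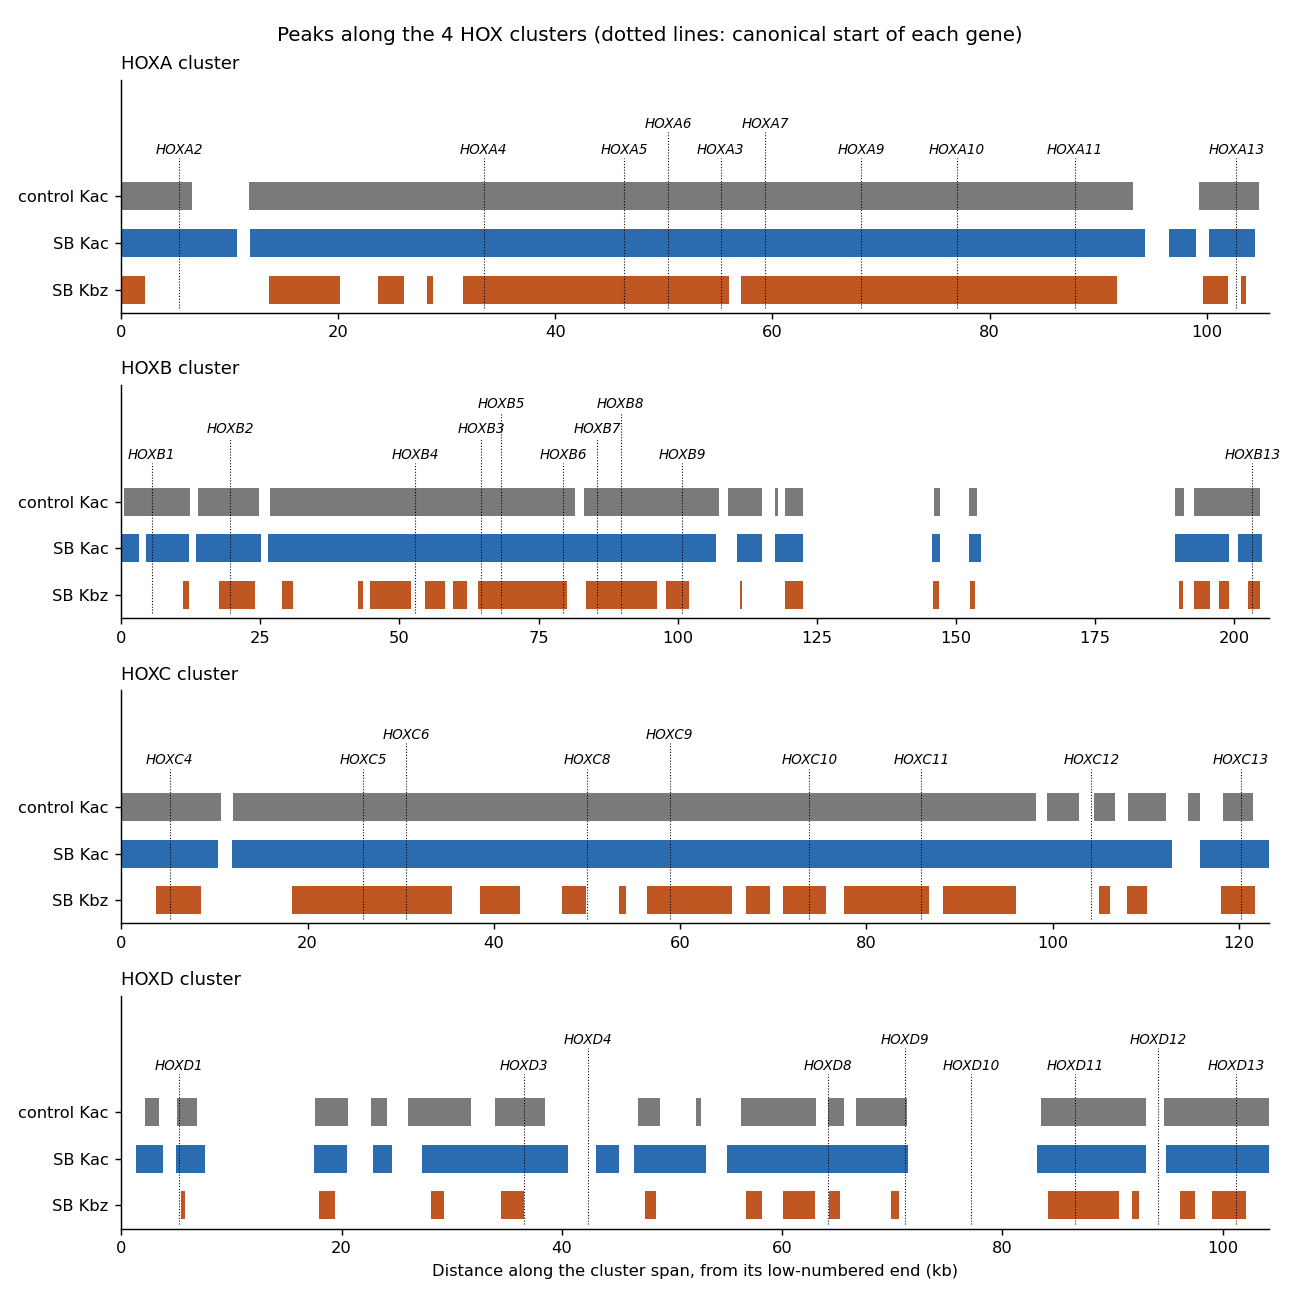
Peaks of control Kac (grey), SB Kac (blue) and SB Kbz (orange) along each HOX cluster, with distance in kb from the end of the span that holds the low-numbered genes, and dotted lines at the canonical start of each gene. Long unbroken Kac bars run through HOXA, HOXB and HOXC, Kbz breaks up into shorter bars inside them, and HOXD is in pieces in all 3 lists.

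The HOXA cluster on chromosome 7 had the highest Kbz cover of any cluster. Control Kac covered 88.5% of its 106 kb, SB Kac 94.3% and Kbz 69.6%. A single control Kac peak of 81440 bp, at chr7:27109092-27190531, held the starts of 8 genes, HOXA3 to HOXA7 and HOXA9 to HOXA11, and a SB Kac peak of 82407 bp at chr7:27109228-27191634 held the same 8. These were the second longest peaks of their lists. Their fold, the read density over the background as the authors' caller gave it, stood at percentile 98.9 of the control Kac list and 99.2 of the SB Kac list, and was the highest in the cluster. Kbz had 5 peaks in the same stretch. The 3 nearest its low-numbered end, of 6600, 2443 and 475 bp, held no canonical start of a listed gene. RefSeq gives HOXA3 other starts, among them 27113842 in the 6600 bp peak and 27122372 in the 2443 bp peak. Of the remaining Kbz peaks of the stretch, a peak of 24513 bp lay over HOXA3, HOXA4, HOXA5 and HOXA6, at chr7:27128801-27153313. A peak of 34633 bp lay over HOXA7, HOXA9, HOXA10 and HOXA11, at chr7:27154477-27189109. The gap between them measured 1163 bp. They were the second longest and the longest Kbz peaks of the genome, with a fold at percentiles 86.1 and 84.9.

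The HOXC cluster on chromosome 12 carried the longest acetylated stretch. Control Kac covered 90.3% of its 123 kb, SB Kac 96.3% and Kbz 56.7%. The control Kac peak at chr12:53960838-54047031 held the starts of HOXC5, HOXC6, HOXC8, HOXC9, HOXC10 and HOXC11, at fold percentile 95.4. The SB Kac peak at chr12:53946269-54047116, at percentile 96.1, held those 6 and HOXC12. The stretch beyond HOXC11 that the longer peak took in held separate peaks in the control list, with gaps of 1380, 1523 and 1155 bp that were wholly under SB Kac. The longest Kbz peak, 17132 bp at chr12:54023554-54040685, held the starts of HOXC5 and HOXC6. The Kbz peak of highest fold in the cluster lay over the start of HOXC4, at chr12:54050445-54055245, at fold percentile 95.2.

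The HOXB cluster on chromosome 17 was acetylated from HOXB1 to HOXB9 and again at HOXB13. Control Kac covered 61.9% of its 206 kb, SB Kac 63.2% and Kbz 33.7%. HOXB13 lies far from its neighbours, and the longest stretch without a peak in the 4 clusters fell between HOXB9 and HOXB13, 35631 bp in control Kac, 34893 bp in SB Kac and 36716 bp in Kbz. In control Kac a peak of 54752 bp at chr17:48552239-48606990 held the starts of HOXB3 to HOXB6, and a peak of 24318 bp at chr17:48608681-48632998 those of HOXB7, HOXB8 and HOXB9. In SB Kac a peak of 80601 bp at chr17:48551868-48632468 held all 7 of these starts, at fold percentile 97.0. The longest Kbz peaks there were 15937 bp over HOXB3, HOXB5 and HOXB6 and 12814 bp over HOXB7 and HOXB8.

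HOXB13, a posterior gene known from the prostate, had the longer Kac peak over its start in control cells. In control Kac its start lay under a peak of 11897 bp at chr17:48718291-48730187, at fold percentile 98.7, the highest of the cluster. In SB Kac this stretch was divided between a peak of 9715 bp and a peak of 4366 bp, and the start of HOXB13 lay under the shorter. The longer, at chr17:48714927-48724641, began outside the stretch and took in most of a separate control Kac peak of 1610 bp. The Kbz peak of highest fold in the cluster, at chr17:48718365-48721134 and percentile 90.8, held no canonical start of a listed gene.

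The HOXD cluster on chromosome 2 was the least covered in control Kac and Kbz, while in SB Kac it stood close to HOXB. Control Kac covered 50.1% of its 104 kb, SB Kac 64.7% and Kbz 22.7%. Its longest peaks measured 11401 bp in control Kac, 16446 bp in SB Kac and 6371 bp in Kbz. The SB Kac peak, at chr2:176122503-176138948, held the starts of HOXD8 and HOXD9, which control Kac marked with separate peaks of 1419 bp and 4631 bp. The longest control Kac peak, at chr2:176087872-176099272, held the start of HOXD13, and the longest Kbz peak, at chr2:176103369-176109739, that of HOXD11. The peaks of highest fold were at chr2:176173333-176176317 in control Kac (percentile 95.9), between HOXD3 and HOXD1, at chr2:176100850-176110809 in SB Kac (percentile 97.3), over HOXD11, and at chr2:176157332-176159451 in Kbz (percentile 96.7), inside HOXD3.

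Cover was lower outside the clusters. In the 100 kb on each side of a cluster, control Kac covered between 2.58% and 45.4% (median 15.1%), SB Kac between 4.24% and 53.1% (median 21.5%) and Kbz between 0% and 5.0% (median 2.87%). In each of the 8 flanks and each list the flank was covered less than its cluster. The flanks are not empty sequence. The lower flank of HOXB and the upper flank of HOXC, with 43.2% and 45.4% under control Kac, overlap other genes with Kac peaks, the start of SKAP1 in the former and part of SMUG1 in the latter.

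**Figure D3:**
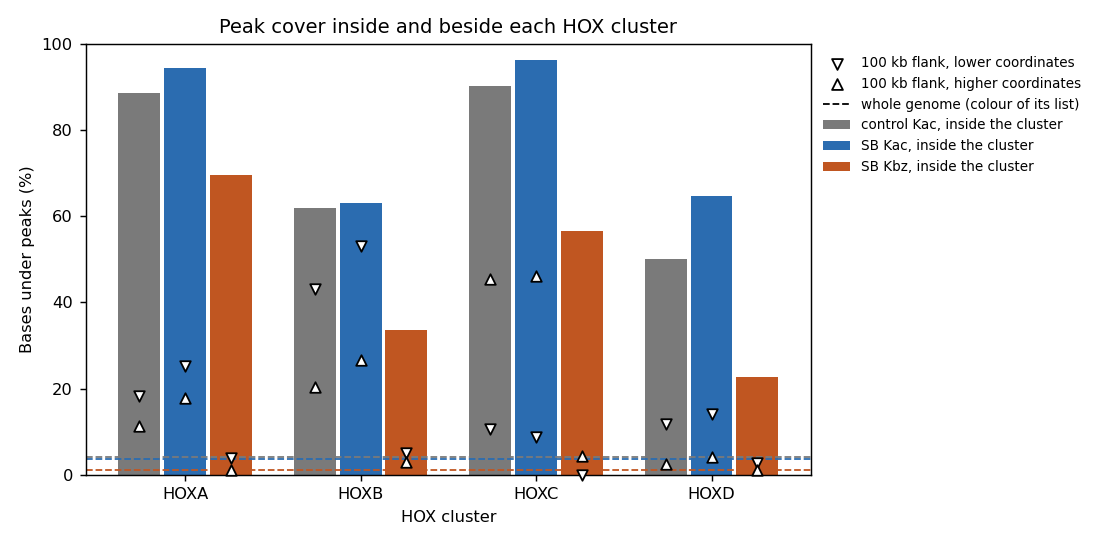
Share of bases under peaks (vertical, %) inside each HOX cluster (bars, 1 per list), in the 100 kb flank on either side (triangles) and in the whole genome (dashed lines). Every bar stands above its own 2 triangles, and Kbz in the flanks stays at or below 5.0% against 22.7% to 69.6% inside.

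At the level of genes, all 38 HOX genes held a control Kac peak and all 38 a SB Kac peak, against 81.7% and 80.4% of protein-coding genes. Kbz was found at 36, against 70.8%, the exceptions being HOXB1 and HOXD4. No HOX gene held control Kac without SB Kac, against 2.89% of protein-coding genes, and none held SB Kac without control Kac, against 1.59%. With shares this small, 0 of 38 does not set HOX genes apart. These counts are of few independent events, since 31 of the 38 windows overlapped that of another member.

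The start of the canonical transcript of each gene, which does not depend on gene length, separated the genes further. For HOXA3 and HOXB3 this start lies well upstream of the rest of the gene, among higher-numbered genes. The start lay under control Kac in 34 genes, against 59.1% of protein-coding genes, under SB Kac in 35, against 60.4%, and under Kbz in 25, against 45.8%. The 25 starts with Kbz were also the starts under all 3 lists, against 44.8%. The 34 starts under control Kac shared 17 peaks, the 35 under SB Kac 15 peaks and the 25 under Kbz 15 peaks. By cluster, Kbz lay over 8 of 10 starts in HOXA, 8 of 10 in HOXB, 7 of 9 in HOXC and 2 of 9 in HOXD, at HOXD11 and HOXD13.

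The marks were wide around HOX starts. In the 6 kb around its start the median HOX gene had 100% control Kac, 100% SB Kac and 70.7% Kbz, while the median protein-coding gene had 32.3%, 33.0% and 14.6%. Over the body plus 3 kb the medians were 96.1%, 100% and 59.5% in HOX genes and 7.26%, 7.24% and 2.24% in protein-coding genes, which have longer windows (median 33471 bp, against 10219 bp). The full 6 kb was covered at 24 HOX genes by control Kac, at 30 by SB Kac and at 9 by Kbz, against 1.87%, 2.15% and 0.135% of protein-coding genes. The 9 with full Kbz cover were HOXA5, HOXA6, HOXA9, HOXA10, HOXA11, HOXB5, HOXB8, HOXC5 and HOXC6. Over starts with a peak, the median fold percentile was 94.3 in HOX genes and 83.8 in protein-coding genes for control Kac, 96.1 and 87.2 for SB Kac, and 81.0 and 70.8 for Kbz.

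**Figure D4:**
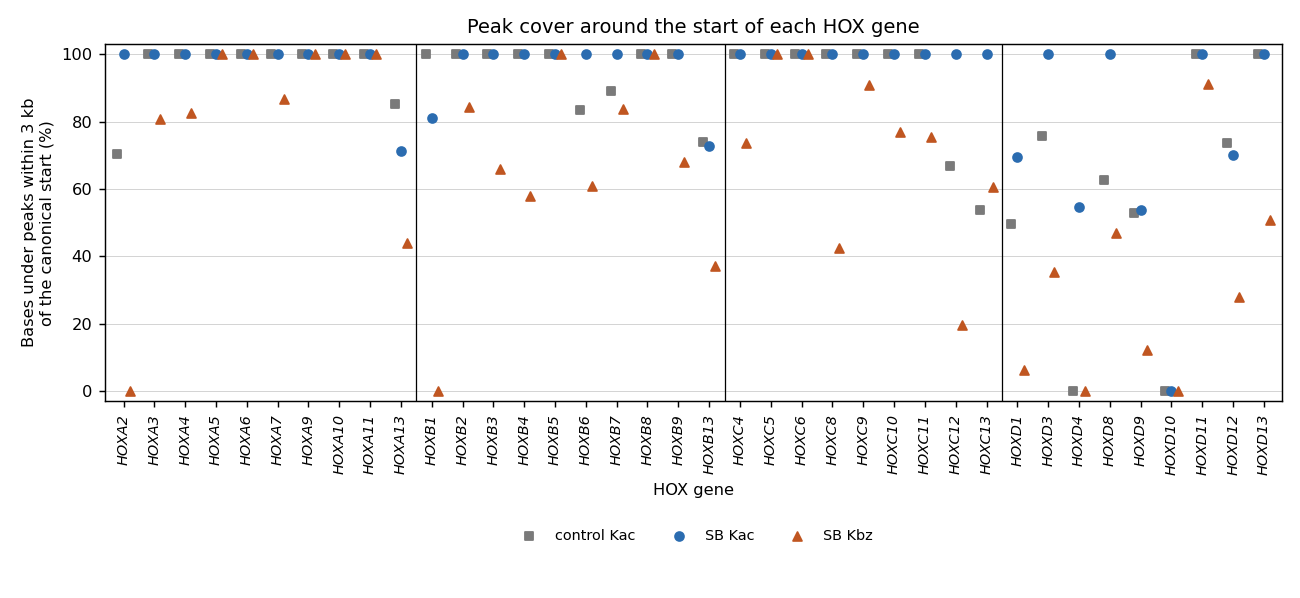
Share of the 6 kb around the canonical start (vertical, %) that lay under control Kac (squares), SB Kac (circles) and SB Kbz (triangles), for each of the 38 HOX genes in the order of the clusters. Most Kac symbols sit at 100% in HOXA, HOXB and HOXC, and the Kbz symbols scatter below them down to 0% at HOXA2, HOXB1, HOXD4 and HOXD10.

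Read by paralogue number, the anterior genes (paralogues 1 to 3) had the lowest median Kbz cover of the HOX classes. Their starts lay under Kbz in 3 of 7 genes, those of central genes (paralogues 4 to 8) in 11 of 15 and those of posterior genes (paralogues 9 to 13) in 11 of 16, against 45.8% of protein-coding genes. The anterior share was thus close to that of protein-coding genes. The 3 anterior genes were HOXA3, HOXB2 and HOXB3. The canonical starts of HOXA3 and HOXB3 lie among central genes, under Kbz peaks that also held starts of central genes. The median Kbz cover of the 6 kb around the start was 35.3%, 83.7% and 64.3% in this order, against 14.6% at the median protein-coding gene. Kac did not show this order at starts, with control Kac over 7 of 7, 14 of 15 and 13 of 16. Median Kac cover of the 6 kb was 100% in each class and both conditions. Over the body plus 3 kb, however, the anterior genes had the lowest median Kac cover too. In the same order, the medians were 86.3%, 100% and 92.2% for control Kac and 89.1%, 100% and 100% for SB Kac. The anterior group was small, and 2 of its 7 genes belonged to HOXD. Within HOXA, HOXA2, which patterns the hindbrain, had 70.5% control Kac, 100% SB Kac and 0% Kbz around its start. Within HOXB, HOXB1, the most anterior gene of the cluster, had 100%, 81.0% and 0%.

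Kbz at the remaining starts was often close by. Of the 13 starts without Kbz, 8 had a Kbz peak within 1 kb, namely HOXA13, HOXB4, HOXC8, HOXC12, HOXD1, HOXD3, HOXD8 and HOXD9. The start of HOXD3 at position 176157307 lay 25 bp from the Kbz peak at chr2:176157332-176159451, so that peak began just downstream of the start. The start of HOXD8 also lay 25 bp from a Kbz peak. A start counted as outside Kbz can therefore lie right beside it.

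The genes whose canonical start lay under no peak of any list were all in HOXD. The start of HOXD10, a posterior gene of limb and spinal cord (chr2:176108790-176119937), lay 5761 bp from the nearest control Kac peak, 5725 bp from SB Kac and 6558 bp from Kbz. It sat in a gap of 12113 bp in control Kac and 11693 bp in SB Kac, the longest of the cluster in either list. All 3 values for the 6 kb around it were 0%. On either side the starts of HOXD9 and HOXD11 lay under Kac in both conditions. The start of HOXD12 lay 523 bp from control Kac, 736 bp from SB Kac and 1705 bp from Kbz.

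HOXD4, a central gene active in hindbrain and trunk (chr2:176151550-176153226), differed most between the control and SB Kac lists. Of its body plus 3 kb, control Kac covered 9.76%, SB Kac 64.5% and Kbz 0%. The distance from its start to the nearest peak was 3928 bp in control Kac, 731 bp in SB Kac and 5234 bp in Kbz. The SB Kac peak on its upstream side, at chr2:176148749-176150819, stood at fold percentile 47.7 of its list, while the one at chr2:176153344-176166617, which reached on to HOXD3, stood at 92.1. The start of HOXD4 was outside both Kac lists. HOXC12, a posterior gene, was the only HOX gene whose start lay under one Kac list and not the other, 251 bp from control Kac and under SB Kac.

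Promoter sequences illustrate what lay under these peaks. RefSeq gives windows from 250 bases before to 50 after a start on GRCh38.p14, and 20 of the 38 genes had at least 1, for 26 distinct windows. For each cluster the gene was taken whose start lay under the Kbz peak of highest fold percentile among peaks over starts, and the first gene, by number, whose start lay under no peak of any list, which of the 4 clusters HOXD alone had, at HOXD4. In HOXA, HOXA3, HOXA4, HOXA5 and HOXA6 tied under 1 peak, and HOXA3 is shown at its canonical start. In HOXB the tied genes were HOXB3, HOXB5 and HOXB6. HOXC4 is shown at the start that RefSeq gives it together with HOXC5, which lies 36947 bp upstream of its canonical start and under another Kbz peak, at fold percentile 85.1. CG dinucleotides are in capitals, and each sequence is written 5′ to 3′ on the gene's own strand.
HOXA3, chr7:27152534-27152833, minus strand: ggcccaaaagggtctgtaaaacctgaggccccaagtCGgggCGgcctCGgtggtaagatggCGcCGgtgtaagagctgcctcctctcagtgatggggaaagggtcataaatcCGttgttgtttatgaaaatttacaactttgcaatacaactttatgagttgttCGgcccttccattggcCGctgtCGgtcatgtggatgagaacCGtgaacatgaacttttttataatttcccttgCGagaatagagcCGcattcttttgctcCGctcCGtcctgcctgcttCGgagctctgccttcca
HOXC4, chr12:54016638-54016937, plus strand: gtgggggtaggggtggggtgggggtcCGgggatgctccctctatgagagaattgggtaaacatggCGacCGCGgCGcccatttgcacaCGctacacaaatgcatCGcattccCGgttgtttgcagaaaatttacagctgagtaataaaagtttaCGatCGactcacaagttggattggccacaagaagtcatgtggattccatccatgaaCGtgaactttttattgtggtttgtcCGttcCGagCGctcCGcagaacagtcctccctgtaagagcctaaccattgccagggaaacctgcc
HOXD13, chr2:176092471-176092770, plus strand: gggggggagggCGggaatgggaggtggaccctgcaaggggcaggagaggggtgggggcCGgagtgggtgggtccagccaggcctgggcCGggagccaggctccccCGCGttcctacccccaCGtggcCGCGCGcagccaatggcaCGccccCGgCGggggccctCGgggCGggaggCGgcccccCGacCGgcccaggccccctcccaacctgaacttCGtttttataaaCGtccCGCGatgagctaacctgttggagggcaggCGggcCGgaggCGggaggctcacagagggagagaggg
HOXD4, chr2:176151300-176151599, plus strand: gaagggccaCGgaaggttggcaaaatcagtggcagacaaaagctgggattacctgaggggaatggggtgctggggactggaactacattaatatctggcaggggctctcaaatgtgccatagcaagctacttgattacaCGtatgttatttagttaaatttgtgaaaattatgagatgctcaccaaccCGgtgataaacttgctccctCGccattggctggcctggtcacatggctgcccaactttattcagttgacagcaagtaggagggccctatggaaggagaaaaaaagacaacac
The windows of HOXA3, HOXC4 and HOXD13 were wholly under control Kac, SB Kac and Kbz. They held 15, 15 and 24 CG dinucleotides. The HOXD4 window held 4 and lay under no peak of any list. CG content did not run in step with the peaks, however, since the HOXD10 window, also under no peak, held 23, and the HOXA13 window, under both Kac lists and outside Kbz, held 44. The median was 22.5 in the 26 HOX windows and 14 in all 34943 windows.

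The letters of the TATA box, TATAAA, were searched on both strands and anywhere in the window, so a match need not be a placed TATA box. They were found in 5 of the 26 HOX windows, or 19.2% against 11.6% of all windows. The 5 were those of HOXA3, HOXA9 and HOXD13 and both of HOXA10. The site at which HOX proteins bind together with their partner PBX, written TGATTNAT and searched on both strands, was found in 2 windows, those of HOXA2 and HOXD11, or 7.69% against 2.82%. The motifs do not overlap each other in sequence. Such matches describe the letters of the window and are not evidence of binding.

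The microRNAs of the clusters were read in the same way, and 4 mature sequences are shown because they differ in their peaks, with the seed (bases 2 to 8, which pair with target RNAs) in capitals, from RefSeq on GRCh38.p14.
miR-196a-5p: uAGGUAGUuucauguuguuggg
miR-196b-5p: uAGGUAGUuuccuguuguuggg
miR-10a-5p: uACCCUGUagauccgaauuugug
miR-10b-3p: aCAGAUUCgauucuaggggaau
The miR-196 pair, which target HOX messages, share the seed and differ at 1 position, A12C, counted from the 5′ end of miR-196a-5p. The hairpin MIR196B, in HOXA at chr7:27169480-27169563, lay wholly under all 3 lists. So did MIR196A2, in HOXC at chr12:53991738-53991847. MIR196A1, in HOXB at chr17:48632490-48632559, encodes the same miR-196a-5p and lay under control Kac, 22 bp beyond the end of the 80601 bp SB Kac peak and 4240 bp from Kbz. The MIR615 hairpin in HOXC, just downstream of the start of HOXC5, lay under all 3.

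The miR-10 genes lie beside the HOX4 genes and differed between clusters. MIR10A, in HOXB at chr17:48579838-48579947, was wholly under both Kac lists and 183 bp from Kbz. MIR10B, in HOXD at chr2:176150303-176150412, was 3313 bp from control Kac, wholly under SB Kac and 3987 bp from Kbz. Its SB Kac peak was the one beside HOXD4 at fold percentile 47.7. The mature miR-10b-5p is named only.

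Control and SB Kac were then compared over the clusters as a whole. Of the bases under control Kac, 97.5% were also under SB Kac in the clusters and 60.4% in the genome. Of those under SB Kac, 90.1% were under control Kac in the clusters and 68.3% in the genome. Such shares rise with cover. Control Kac covered 71.4% of the clusters and 4.22% of the genome, and SB Kac 77.1% and 3.74%. The sequence under SB Kac alone measured 41.0 kb, of which 16.9 kb lay in HOXD, and that under control Kac alone 9.80 kb. SB Kac thus covered more of the clusters than control Kac while covering less of the genome. The 4 clusters shared this direction, with HOXB the closest at 128 and 130 kb.

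The direction held when the lists were made alike in size. With the 15000 peaks of highest −log10 p from each list, the lists covered 49.0 Mb (control) and 48.8 Mb (SB) of the genome, and 335 kb and 375 kb of the clusters. At a −log10 q threshold of 5 the clusters had 350 and 389 kb, but HOXB turned, with 119 kb in control Kac and 115 kb in SB Kac. The flanks went the same way as the clusters, with more SB Kac than control Kac in 7 of 8. The difference was therefore not confined to the clusters, and with 1 library per group it cannot be told apart from a difference between libraries.

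Part of this was the joining of peaks. Control Kac left 30 gaps between its peaks in the clusters, and 10 of them were wholly under SB Kac. SB Kac left 23 gaps, and 2 were wholly under control Kac, both in HOXB. Among genes, the share of the body plus 3 kb under Kac was higher in SB than in control for 16, equal for 17 and lower for 5, with means of 90.3% and 83.9%. The 5 lower were HOXB1, HOXB7, HOXB13, HOXC4 and HOXD12. Of the 15779 protein-coding genes with Kac in both lists, 7888 were higher in SB and 7852 lower. Neighbouring genes shared the joined peaks, so the 16 are not independent cases.

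Kbz was set beside SB Kac, the mark of the same treated cells. In the clusters 99.8% of the bases under Kbz were also under SB Kac, against 93.6% in the genome. The exception was 0.555 kb in HOXA. Of the bases under SB Kac, 56.7% were under Kbz, against 26.2% in the genome. This share was 73.2% in HOXA, 58.8% in HOXC, 53.3% in HOXB and 35.1% in HOXD, the same order as in Kbz cover. Shares of this kind rise with cover, so they do not measure a closer link of the marks in the clusters. SB Kac covered 77.1% of the clusters and 3.74% of the genome, and Kbz 43.9% and 1.05%. Of the 48 gaps between Kbz peaks, 30 were wholly under SB Kac. In these 30 places a SB Kac peak ran on where the Kbz list held no peak, which need not mean that Kbz was absent.

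The RNA genes and neighbours of the clusters were described from a list of 32. Control Kac lay over 27 of their starts, SB Kac over 26 and Kbz over 19, against 59.1%, 60.4% and 45.8% of protein-coding starts. Many of these genes lie inside the clusters and share the peaks already counted for HOX genes, so they are not independent cases. HOTAIR, HOXC-AS1, MIR196A2 and MIR615, for example, had starts under the same control Kac peak of 86194 bp. For microRNA genes the start is the 5′ end of the hairpin. HOTAIR, a long noncoding RNA of HOXC known for its link to Polycomb, had 100% control Kac, 100% SB Kac and 93.6% Kbz in the 6 kb around its start. HOTAIRM1, read from the anterior end of HOXA, had 100%, 100% and 75.9%. HOTTIP, read from the posterior end of HOXA, had 56.0%, 67.0% and 14.7%, with its start 34 bp outside SB Kac. The even-skipped genes EVX1 and EVX2, homeobox genes just beyond the posterior ends of HOXA and HOXD, had starts under no peak of any list.

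Of 24 HOX partners and upstream regulators, 20 starts carried control Kac, 20 SB Kac and 15 Kbz. Over all protein-coding genes the shares were 59.1%, 60.4% and 45.8%. MEIS1, a cofactor of HOX proteins, had the full 6 kb around its start under control Kac, SB Kac and Kbz. RARB, a retinoic acid receptor, had 100%, 100% and 67.9%, and CDX2, a caudal factor that acts upstream of HOX genes, 100%, 100% and 56.1%. KMT2A, the methyltransferase that maintains HOX expression, had 73.1%, 74.1% and 69.8%. GSX1, a ParaHox gene related to the anterior HOX genes, held 0 peaks in all 3 lists. At RARA and PBX3 the start lay under control Kac and outside SB Kac, by 1067 bp at RARA and 834 bp at PBX3. The control Kac peaks over these starts measured 2932 bp at RARA (fold percentile 35.6) and 7073 bp at PBX3 (66.2). At GSX2 and PDX1, both ParaHox genes, the start lay under SB Kac and outside control Kac, by 6235 bp at GSX2 and 1840 bp at PDX1. The SB Kac peaks over these starts were short, 280 bp at GSX2 (fold percentile 49.7) and 1554 bp at PDX1 (61.6).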

How the data were processed

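Per the labels and the study's methods, chromatin was cut with micrococcal nuclease, single reads of 50 bp were aligned to hg38 with Bowtie2 2.2.6, PCR duplicates were removed with SAMtools 0.1.19, and the authors called peaks per library with MACS2 2.1.1 at a false discovery rate of 0.01. The background of each call is not given in the sources used here. The deposited lists reach q values of 0.0487 (control Kac), 0.0494 (SB Kac) and 0.0485 (SB Kbz). The deposited score, a display value, was not used. The deposited fold, a linear ratio over background, was ranked within each list alone. Thresholds were set on the deposited −log10 p and −log10 q. Depth is unknown, because peak lists give no read totals, and a deeper library gives more and longer peaks from the same chromatin. Peaks on 24 chromosomes were used, 70326, 63282 and 24308 in the order above, leaving out 3 control Kac peaks on unplaced or other contigs.

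Samples were grouped by antibody and treatment, with no test between groups. The HOX genes, the other gene lists and the alternatives were chosen with earlier results of these data known. All 38 members could be named. Other genes came from fixed lists, and peaks were named as the longest and the one of highest fold per cluster and list. HOXB7 and HOXB8 under 1 Kbz peak, the second HOXA Kbz peak, the peaks at HOXB13 and HOXD4, and the gaps were named after their values were seen. Percentages are of bases covered, and a fold percentile is the rank of a peak's fold in its list. Alternatives were other thresholds, 15000 peaks per list, peaks merged within 1 kb, other gene windows, 500 bp of overlap and the outermost start. Tools were pandas 2.3.3, numpy 2.4.6 and matplotlib 3.10.9 in Python 3.11.15. Overlaps were tested at random positions drawn inside and between the peaks of each list. A further 114 overlap counts were checked with bedtools 2.31.1, of which 0 differed. RefSeq tables of GRCh38.p14 gave the sequences. Values of some listed genes are not reported here.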

Additional observations from a re-analysis of the deposited data

How the results depend on the processing

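No paired analysis was possible because no group held more than 1 library, and for the same reason no replicate could be left out. Of 67 recomputed values for 11 results, 63 stayed within 1.5 times the value reported, and 4 did not. HOX genes with control Kac and no SB Kac numbered 1, HOXB1, in place of 0 at a −log10 q threshold of 5. Those with SB Kac and no control Kac numbered 2, HOXA2 and HOXD9, in place of 0 both at that threshold and with the 15000 peaks of highest −log10 p. They numbered 1, HOXD4, within 3 kb of the canonical start. Merging peaks within 1 kb changed no value, but it bears on nothing here, since the shortest gap between peaks of a list in the clusters measured 1121 bp. In the order control Kac, SB Kac and Kbz, starts under a peak numbered 30, 33 and 24 at the threshold of 5, and 28, 32 and 24 with 15000 peaks per list. Peak edges and joins depend on depth, which is unknown, and this limits every length and gap compared between lists.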
